A study of Mus musculus with 6 samples.

Results

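Cluster YAP5SAcm is 1 of 17 cell clusters that the authors named in single-cell RNA profiles of adult mouse hearts, and its cells were taken here by that deposited name alone. It held 995 of 21706 cells, of which 896 came from YAP5SA hearts and 99 from Control hearts. The profiles were made by Drop-seq, which captures single cells with barcoded beads in droplets and counts molecules by unique molecular identifiers (UMIs) near the 3' end of each transcript. Control mice were labelled Myh6-MCM, a strain with a tamoxifen-activated Cre recombinase driven by the cardiomyocyte promoter Myh6. YAP5SA mice were labelled Yap5SA+/tg; Myh6-MCM and also have a transgene whose YAP protein the Lats kinases cannot inactivate. All mice were adult and had received tamoxifen, Controls included. Each genotype had 3 libraries, namely 1 of cardiomyocytes enriched by gravity settling and 2 of dissociated tissue with its fractions put together again. The names used here follow the cell table: the tissue libraries are tissue-2 and tissue-3 in Control and tissue-1 and tissue-2 in YAP5SA. The labels do not say how many animals went into a library, so that p-values measure only the spread between these libraries, which may be technical.

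YAP is the transcriptional coactivator at the end of the Hippo pathway. The Mst kinases activate the Lats kinases, which phosphorylate YAP and keep it out of the nucleus. Unphosphorylated YAP enters the nucleus and binds TEAD factors on DNA, where it raises genes of growth, adhesion, cytoskeleton and matrix. Adult cardiomyocytes rarely divide, and Hippo signalling is one of the known restraints on their cell cycle.

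The name cardiomyocyte was checked against 10 markers of this cell type. Their summed level was 24937 CPM (UMIs of a gene per 1000000 UMIs of the summed cells, unscaled) in YAP5SAcm cells of YAP5SA tissue-1, 20031 in tissue-2 and 28721 in enriched. In the fibroblast, macrophage, monocyte, endothelial, endocardial, epicardial and smooth muscle clusters of the same libraries the sum lay between 584 and 4431 CPM. In cluster CM1, the ordinary cardiomyocyte cluster with the deepest cells, it lay between 52165 and 62868 CPM. YAP5SAcm cells thus stood above every other cell type in cardiomyocyte transcripts and below CM1 in each of the 3 libraries. All 10 markers had UMIs in the cluster.

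The cluster held most cardiomyocytes of the YAP5SA tissue hearts and few of the Control hearts. Of the cells named CM1, CM2, CM3 or YAP5SAcm, 212 of 343 (61.8%, exact Clopper-Pearson 95% interval 56.4 to 67.0) belonged to it in YAP5SA tissue-1, 203 of 282 (72.0%, 66.4 to 77.1) in tissue-2 and 481 of 1004 (47.9%, 44.8 to 51.1) in enriched. In Control the counts were 16 of 1068 (1.5%, 0.859 to 2.42) in enriched, 50 of 576 (8.68%, 6.51 to 11.3) in tissue-2 and 33 of 1173 (2.81%, 1.94 to 3.93) in tissue-3. The genotypes did not overlap. The mean was 60.6% ± 12.1 (SD, n = 3) against 4.33% ± 3.82 (SD, n = 3), a difference of 56.2 percentage points. An exact two-sided permutation test with genotype permuted within preparation gave p = 0.167, the smallest value its 12 arrangements allow, so this design cannot pass 0.05. Intervals cover counting error only, and fewer cells of the other clusters would raise the share as more cells of this one would.

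**Figure D1:**
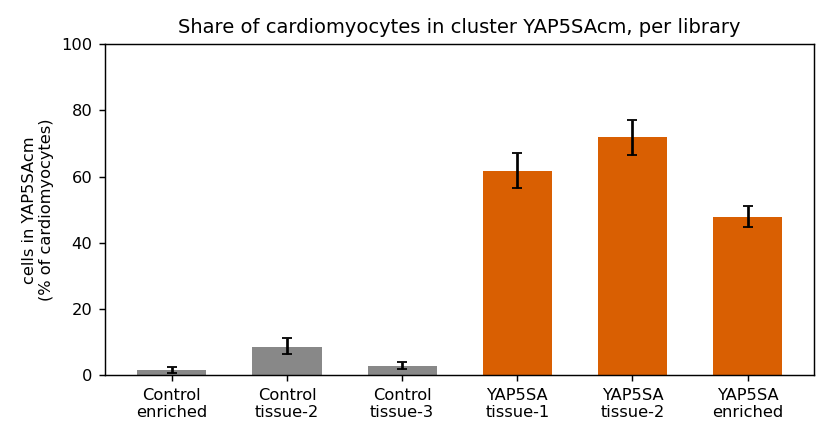
Share of cardiomyocytes (cells named CM1, CM2, CM3 or YAP5SAcm) that belong to cluster YAP5SAcm, in percent, for each of the 6 libraries (grey, Control; orange, YAP5SA). Bars start at 0 and error bars are exact 95% binomial intervals. The 3 YAP5SA libraries lie between 47.9% and 72.0% and the 3 Control libraries between 1.5% and 8.68%.

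YAP5SAcm was next set against CM1, CM2 and CM3 cells of the same YAP5SA library. UMIs were summed per library, which gave 745971, 937327 and 2313344 UMIs for YAP5SAcm (tissue-1, tissue-2, enriched) and 313582, 323027 and 2119376 for CM1 to CM3. Because the authors drew the clusters from these same transcripts, the gene differences describe the cluster and no test was made of them. A gene was called higher or lower where its log2 ratio was at least 1, or at most -1, in each of the 3 libraries; levels in this comparison are CPM after TMM scaling, and errors are the SD over 3 libraries. Counts of gene lists below cover their members among the 5990 genes with a mean of at least 20 CPM. Of these genes, 326 (5.44%) were called higher and 234 (3.91%) lower. This split leans on the scaling. With library totals alone the median log2 ratio of all genes moved from 0.04 to 0.37 and the calls to 624 higher and 97 lower; with RLE size factors they were 288 and 266. It also leans on CM1, which supplied 165283, 198324 and 1432712 of the UMIs of CM1 to CM3: with the 3 clusters at equal weight the calls were 336 higher and 91 lower.

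All 5 genes taken as markers of the cluster were called higher. Cemip, which codes for a protein that binds and breaks down hyaluronan, the long sugar polymer of the matrix, stood at 847 and 826 CPM in the tissue libraries and 303 CPM in enriched, against 60.1, 23.0 and 12.1 CPM in CM1 to CM3. Its log2 ratio of 4.43 ± 0.64 was the largest among the genes named by rule. Mcam, an adhesion molecule of the immunoglobulin family known from vessel walls, stood at 440, 479 and 271 CPM against 43.4, 85.5 and 38.1 (log2 ratio 2.84 ± 0.42). For both genes the enriched library was the lowest of the 3. Csf1, the growth factor on which macrophages depend, stood at 660, 579 and 418 CPM against 107, 75.6 and 38.7 (2.96 ± 0.39). Acta2, the smooth muscle actin that embryonic cardiomyocytes also make, stood at 3412, 3016 and 4577 CPM against 1186, 1079 and 1154 (1.66 ± 0.28). Crim1, a transmembrane protein that binds bone morphogenetic proteins, stood at 322, 436 and 319 CPM against 104, 161 and 76.8 (1.69 ± 0.31). Because the clusters were drawn from these same transcripts, the separation of the 5 markers describes the cluster and tests nothing. Yap1 itself stood at 45.9, 47.3 and 31.0 CPM against 50.1, 19.7 and 21.8, with ratios of -0.12, 1.19 and 0.48 that differed in sign; 3' counts cannot tell the mouse gene's transcripts from those of a Yap transgene, whose 3' end the labels do not describe.

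**Figure D2:**
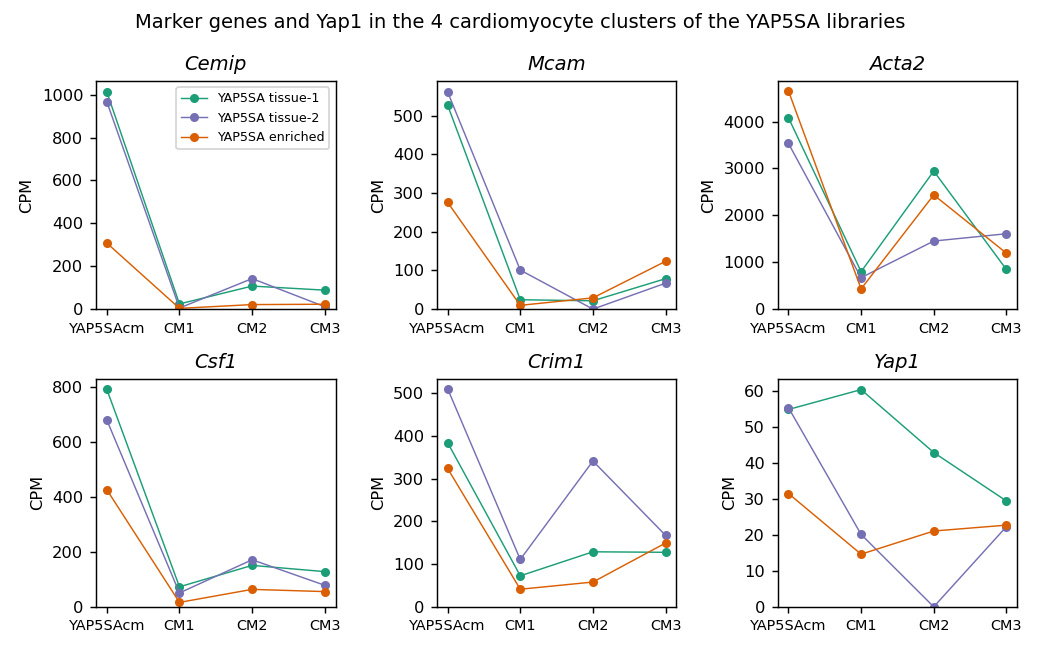
Level in CPM (linear axes from 0, unscaled) of the 5 marker genes and Yap1 in clusters YAP5SAcm, CM1, CM2 and CM3, one line for each YAP5SA library. The 5 markers are highest in YAP5SAcm in each library; Yap1 shows no common order, and its lines cross.

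Of the 5 markers Cemip had the widest gap to the next cluster. Over the 17 clusters of the YAP5SA libraries, Cemip averaged 763 ± 395 CPM (SD, n = 3, unscaled) in YAP5SAcm, then 90.3 ± 62.4 in CM2 and 70.8 ± 66.4 in smooth muscle cells. Acta2 was shared with smooth muscle cells, at 4091 ± 560 CPM against 3753 ± 2009; YAP5SAcm was the higher in both tissue libraries and the lower in enriched. For Mcam the next cluster was again smooth muscle (455 ± 156 against 272 ± 148 CPM). Within a library YAP5SAcm was higher each time, at 527 against 134 CPM in tissue-1, 561 against 428 in tissue-2 and 276 against 254 in enriched, the last a narrow gap. Csf1 followed at 246 ± 60.1 CPM in epicardial cells against 631 ± 187, with no overlap between the libraries. Crim1 reached 305 ± 139 CPM in endocardial cells against 407 ± 95.3, and was the higher of both in enriched. Myh11, the smooth muscle myosin, and Acta2 were the 2 of 6 described smooth muscle markers called higher. Myh11 stood at 80.7, 86.5 and 58.7 CPM against 6.68, 6.58 and 10.3, whereas Cnn1, calponin of smooth muscle, stood at 2.24, 15.5 and 11.9 against 23.4, 55.9 and 19.95. The summed smooth muscle list ran from 4170 to 6380 CPM in YAP5SAcm and from 2827 to 4125 in CM1 to CM3. Without Acta2 the order turned, at 1108, 1154 and 1803 CPM in YAP5SAcm against 1641, 2292 and 2972; the part of smooth muscle cells in the results was not tested.

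**Figure D3:**
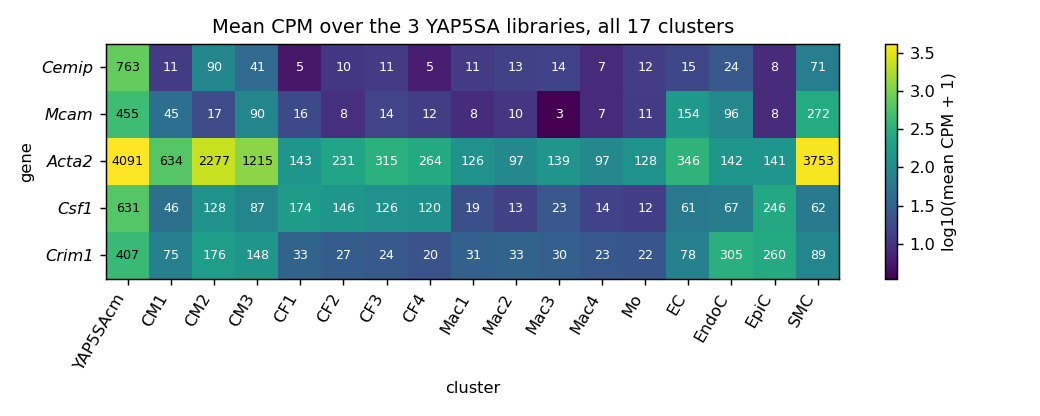
Mean level over the 3 YAP5SA libraries of the 5 marker genes (rows) in all 17 clusters (columns), in CPM printed in each cell and coloured on a log10(CPM + 1) scale. Cemip is 763 in YAP5SAcm and at most 90 elsewhere, whereas Acta2 is as high in smooth muscle cells (SMC) and Crim1 is also high in endocardial and epicardial cells.

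Cell by cell the markers were scattered. Each cell was thinned to 1000 UMIs to remove depth, which left out 32, 21 and 40 shallower YAP5SAcm cells of tissue-1, tissue-2 and enriched. A Cemip UMI was then found in 84 of 180 cells (46.7%), 78 of 182 (42.9%) and 97 of 441 (22.0%), and unthinned in 56.1%, 62.6% and 39.9%. In macrophages, which should lack Cemip, the thinned shares were 0.726%, 1.16% and 0.792% and the unthinned 2.04%, 1.93% and 0.985%, at median depths of 1365.5, 1830 and 1213 UMIs against 2107.5, 2690 and 3251 in YAP5SAcm. CM1 cells gave 1 of 34, 0 of 27 and 1 of 182. At least 2 of the 5 markers were seen in 71.1%, 76.4% and 59.6% of thinned YAP5SAcm cells, against 5.88%, 7.41% and 1.10% of CM1, 31.8%, 23.1% and 11.4% of CM2 and 21.2%, 21.7% and 21.4% of CM3. All 5 were seen in 8, 8 and 6 cells, and none in 15, 10 and 42. The median was 2 markers per YAP5SAcm cell in each library at this depth. The shares of CM2 and CM3 cells lay between those of CM1 and YAP5SAcm, with intervals that overlapped those of CM1 in the tissue libraries and not in enriched.

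Matrix, adhesion and cytoskeleton genes were among those that were high. Besides Cemip, Csf1 and Mcam, the 12 largest ratios by the naming rule were those of Lox, Thbs1, Col4a3, Adm, Ptpn23, Col4a4, Itga3, Axl and Marcks. Lox, the enzyme that crosslinks collagen and elastin, stood at 425, 458 and 226 CPM against 30.1, 59.2 and 13.9 (log2 ratio 3.50 ± 0.51). Thbs1, the secreted adhesion protein thrombospondin, stood at 332, 483 and 193 CPM against 30.1, 52.6 and 12.7 (3.43 ± 0.30). Col4a3 and Col4a4, neighbouring genes for chains of the collagen of basement membranes, had ratios of 3.36 ± 0.60 and 2.98 ± 0.36. Some of the 12 genes were higher still in fibroblasts of the same libraries, pooled and unscaled. Lox, Thbs1, Axl and Marcks stood there at 445, 453, 320 and 501 CPM, against 354, 321, 109 and 228 in YAP5SAcm. The rest of the 12 were higher in YAP5SAcm than in any non-cardiomyocyte class of at least 100 cells. Of 30 matrix genes described, 9 were called higher and none lower (median log2 ratio 1.18 against 0.04 for all genes), with Col5a2, Col8a1, Col12a1 and Timp2 among the others. The list's median differed between libraries, at 0.84 and 0.86 in tissue and 1.94 in enriched. The summed fibroblast markers, genes of the main matrix-making cell, were 561, 738 and 1232 CPM in YAP5SAcm and 622, 543 and 415 in CM1 to CM3, so that they were higher in YAP5SAcm in tissue-2 and enriched, like the matrix list, and lower in tissue-1, unlike it. Among cells with no UMI of the fibroblast and macrophage markers, which could be compared in tissue-1 and enriched alone, 368 genes were called higher and 321 lower. A call there needed only 2 libraries. With all cells, leaving out a YAP5SA library gave 422 to 489 higher and 268 to 352 lower. The sums of tissue-1 rested on 36 YAP5SAcm cells and 41 cells of CM1 to CM3.

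Of 21 integrin, laminin and surface adhesion genes 6 were called higher and none lower (median 0.87). They were the laminin receptor subunits Itga3 (148, 193 and 75.3 CPM against 30.1, 23.0 and 5.44) and Itga7 (1267, 2181 and 918 against 247, 671 and 225), the laminins Lama2 and Lamc1, Mcam and Vcam1. Of 29 genes of the actin cytoskeleton and its adhesions 9 were called higher and none lower (median 0.94). Pak3, a kinase that Rac and Cdc42 switch on, had a log2 ratio of 2.59 ± 0.14, Ezr, which ties actin to the membrane, 2.55 ± 0.49, and the crosslinker Actn1 2.22 ± 0.40. Myh9, the non-muscle myosin heavy chain, reached 2.10 ± 0.47. Cemip, the hyaluronan receptor Cd44 (1.61 ± 0.37) and the receptor Hmmr, which also serves the mitotic spindle, were the 3 of 6 hyaluronan genes called higher.

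**Figure D4:**
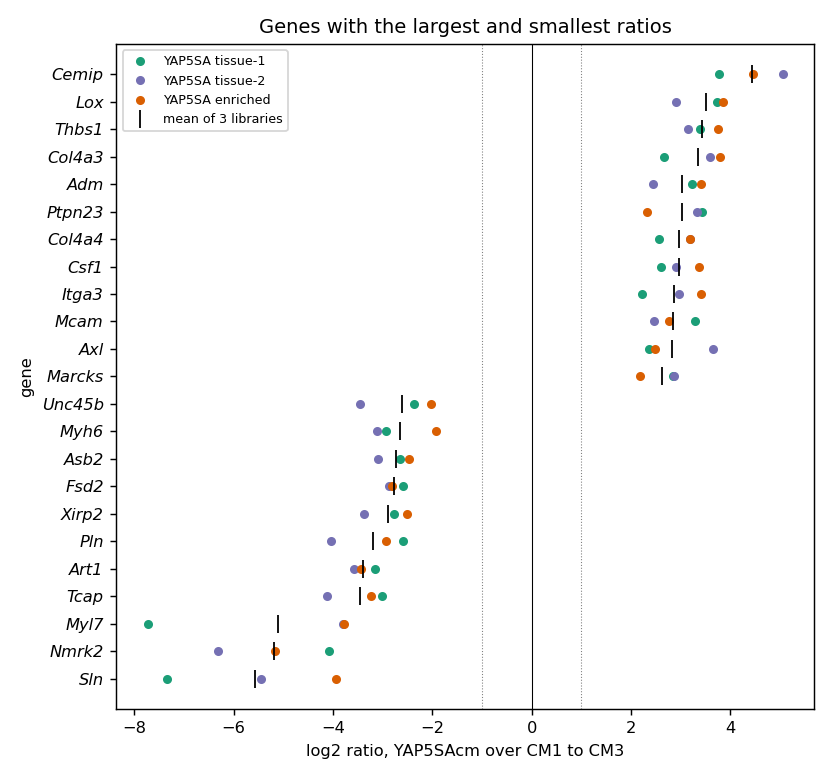
Log2 ratio of YAP5SAcm to CM1 to CM3 in each YAP5SA library (coloured points) and its mean (black bar) for the 12 genes with the largest and 11 of the 12 with the smallest ratio by the naming rule. Dotted lines mark -1 and 1, and the largest spread is that of the atrial genes Sln and Myl7.

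Secreted factors were a smaller group, with 4 of 16 called higher and none lower (median 0.86). Beside Csf1 these were Tgfb3, a transforming growth factor (248, 372 and 250 CPM against 76.8, 92.1 and 34.5), Vegfa, the main growth factor of blood vessels (245, 209 and 131 against 90.2, 59.2 and 44.1), and Pdgfa (log2 ratio 1.44 ± 0.17). The complement list held 1 gene called higher of 6, C1ra, and none lower. Its C1qa, C1qb and C1qc, which macrophages make, showed ratios close to 0 in tissue-2 and positive ones in the other libraries, and the summed macrophage markers were 393, 993 and 696 CPM in YAP5SAcm against 334, 957 and 531. No interferon gene of 9 was called.

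On the Hippo side, 7 of 18 YAP target genes described, of 22 listed, were called higher and none lower (median 1.34). These were Amotl2, Cyr61, Asap1, Axl, Igfbp3, Crim1 and Nt5e. Axl, a receptor tyrosine kinase for Gas6, stood at 111, 145 and 75.7 CPM against 20.1, 9.86 and 12.1 (log2 ratio 2.83 ± 0.71). Cyr61, a secreted matrix protein much used as a YAP readout, stood at 886, 921 and 607 CPM against 374, 395 and 225 (1.29 ± 0.11). Amotl2, which binds YAP and restrains it, reached 1.43 ± 0.38. Not every classical target followed. Ctgf had ratios of 0.58, 0.86 and 1.54, and Ankrd1, a stretch-responsive cardiac target of YAP, stood at 18270, 17310 and 18315 CPM against 20306, 22938 and 18867 (-0.20 ± 0.19). Of 13 Hippo pathway components, Wwc1 and Amot were called higher and none lower (median 0.77). Tead1, the main TEAD factor of heart muscle, had ratios of 0.86, 0.78 and 1.41.

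The promoters of these genes were searched for the letters GGAATG on either strand, the core that TEAD factors bind, in the 300 bases from 250 before to 50 after the start of each gene in RefSeq (GRCm38.p6). Among the 5 cluster markers and the YAP targets called higher, the letters were found in the 5 promoters below, shown because they place a TEAD core near the start of genes high in the cluster. Capitals mark the letters, which begin 146 bases before the start in Acta2, 79 in Crim1, 233 in Axl, 65 in Amotl2 and 103 in Cyr61 (Ccn1 in RefSeq); Amotl2 and Cyr61 carry them on the other strand, as CATTCC. The windows are chr19:34255324-34255623 (minus strand) for Acta2, chr17:78199998-78200297 (plus) for Crim1, chr7:25788684-25788983 (minus) for Axl, chr9:102717554-102717853 (plus) for Amotl2 and chr3:145649936-145650235 (minus) for Cyr61, and each is written in the direction of its gene.
Acta2: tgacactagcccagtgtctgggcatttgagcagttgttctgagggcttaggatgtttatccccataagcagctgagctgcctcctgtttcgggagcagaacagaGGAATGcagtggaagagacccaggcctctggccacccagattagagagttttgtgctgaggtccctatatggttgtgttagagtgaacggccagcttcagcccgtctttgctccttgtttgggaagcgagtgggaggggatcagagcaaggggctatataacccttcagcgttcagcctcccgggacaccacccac
Crim1: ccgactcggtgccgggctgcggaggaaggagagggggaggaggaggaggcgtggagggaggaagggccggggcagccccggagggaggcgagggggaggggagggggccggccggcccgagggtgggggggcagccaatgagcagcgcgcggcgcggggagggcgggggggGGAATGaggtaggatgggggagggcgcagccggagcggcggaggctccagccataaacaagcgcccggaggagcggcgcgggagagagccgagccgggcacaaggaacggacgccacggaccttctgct
Axl: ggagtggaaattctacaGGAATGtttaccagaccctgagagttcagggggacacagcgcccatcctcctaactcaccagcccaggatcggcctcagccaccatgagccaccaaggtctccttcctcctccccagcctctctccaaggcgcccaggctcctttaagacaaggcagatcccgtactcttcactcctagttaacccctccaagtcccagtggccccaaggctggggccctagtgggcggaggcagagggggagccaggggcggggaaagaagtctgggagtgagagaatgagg
Amotl2: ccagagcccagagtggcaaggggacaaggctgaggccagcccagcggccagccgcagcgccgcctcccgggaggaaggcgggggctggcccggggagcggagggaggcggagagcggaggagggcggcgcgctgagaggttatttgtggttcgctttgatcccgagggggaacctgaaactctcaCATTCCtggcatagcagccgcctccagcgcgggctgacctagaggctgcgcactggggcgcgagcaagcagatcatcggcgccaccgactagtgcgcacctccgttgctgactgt
Cyr61: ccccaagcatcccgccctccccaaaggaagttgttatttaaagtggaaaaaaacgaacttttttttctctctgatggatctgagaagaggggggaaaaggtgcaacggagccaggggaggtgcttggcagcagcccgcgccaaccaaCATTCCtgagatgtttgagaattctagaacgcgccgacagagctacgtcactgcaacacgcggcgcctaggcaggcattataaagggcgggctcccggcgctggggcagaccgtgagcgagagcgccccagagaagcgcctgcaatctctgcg
The windows of Cemip, Mcam, Csf1, Igfbp3 and Nt5e did not hold these letters, and Asap1 was not searched. Yap1 held them 1 time and Ankrd1, which was not called, 2 times. Nor did the letters set the high genes apart. They were in 16.6% of the 265 genes called higher that had a promoter in the table, in 22.1% of 172 called lower, in 14.7% of 4633 genes described and in 14.7% of all 32851 promoters. The strict letters of the CArG box, the element of serum response factor, were searched as CCWWWWWWGG, where W is A or T. They were in 2.64% of the higher, 5.81% of the lower and 2.01% of the described genes. Looser forms of the element, such as ccctatatgg in the Acta2 window, were not counted. A match is a stretch of letters and not evidence of binding, and distal enhancers were not searched.

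Contractile genes were low. Of 26 genes of the sarcomere and calcium handling 13 were called lower and none higher (median log2 ratio -1.39). Pln, the brake on the calcium pump, stood at 414, 134 and 421 CPM against 2506, 2226 and 3243 (-3.19 ± 0.76), and Atp2a2, the pump itself, reached -2.04 ± 0.53. Tcap, which caps titin at the Z disc, stood at 314, 53.7 and 338 CPM against 2563, 960 and 3200 (-3.46 ± 0.58). Myh6, the fast adult myosin, stood at 1018, 682 and 738 CPM against 7796, 5896 and 2791 (-2.65 ± 0.64). The thin filament genes Tnni3 and Actc1 were called lower, whereas Tnnt2 fell short of the call in enriched, where its ratio was -0.73, and Ttn likewise stayed above -1 there.

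The other small ratios by the naming rule included those of the muscle genes Nmrk2, Art1, Xirp2, Fsd2, Asb2 and Unc45b, with Sln and Myl7. Nmrk2, a kinase that makes the cofactor NAD from nicotinamide riboside, stood at 8.96, 3.64 and 8.50 CPM against 180, 434 and 371 (-5.19 ± 1.12). Sln and Myl7 are genes of atrial muscle. Sln stood at 5.60, 8.19 and 2.13 CPM against 1203, 434 and 58.7, and Myl7 at 13.4, 177 and 5.95 against 3228, 2469 and 105. Both were far higher in the CM1 to CM3 cells of tissue libraries than in those of the enriched library; whether atrial cells in the tissue account for that was not tested.

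Against CM2 fewer genes were low. Taken cluster by cluster over 5804 genes, 462 genes were called higher and 311 lower against CM1, 274 and 100 against CM3, and 371 and 21 against CM2. Myh6 had a mean ratio of -2.59 to CM1 and -3.0 to CM3 but -0.19 to CM2, and Atp2a2 of -2.14, -2.17 and 0.49 in the order CM1, CM3 and CM2. Other genes stayed low against CM2 too, with ratios of -5.58 for Sln, -5.20 for Myl7, -2.56 for Nmrk2, -1.96 for Tcap and -1.45 for Pln. Among other muscle genes named above, Fsd2 also stayed low (-1.45). Art1, Asb2 and Xirp2 stood at only -0.48, -0.66 and -0.67 against CM2, and Unc45b at 0.55. Cemip kept ratios of 5.59, 4.22 and 3.39 to CM1, CM3 and CM2, and Mcam of 3.42, 2.14 and 4.89. Among the genes called higher, 222 had a mean ratio of at least 1 to each of the 3 clusters. CM2 cells were the shallowest, with medians of 1020.5, 989.5 and 1169 UMIs, and their sums in tissue-1 and tissue-2 rest on 40 and 26 cells. Pooled over genes, the median absolute ratio was 0.52 to CM3, 0.57 to CM1 and 0.66 to CM2, a measure that also grows as sums get smaller.

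Genes of energy supply were low as well. Of 46 nuclear genes of the respiratory chain 15 were called lower and none higher (median -1.08), for example Ndufb10 of complex I (382, 238 and 571 CPM against 1079, 763 and 2006). Of 23 genes of fatty acid uptake and oxidation 9 were called lower and none higher (median -1.05); Acadm, the medium-chain dehydrogenase, had the tight ratio of -1.99 ± 0.10 and the carrier Fabp3 of -1.72 ± 0.16. With library totals in place of TMM these counts were 3 in each list, with medians of -0.74 and -0.71. Of 7 mitochondrially encoded genes, mt-Nd5 and mt-Nd6 were called lower (list median -1.11). Glycolysis was split, with 5 of 19 called lower, among them the muscle enzymes Eno3 (-1.97 ± 0.09) and Pfkm (-1.64 ± 0.13), and Slc2a1, the widespread glucose transporter, called higher (2.42 ± 0.60).

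**Figure D5:**
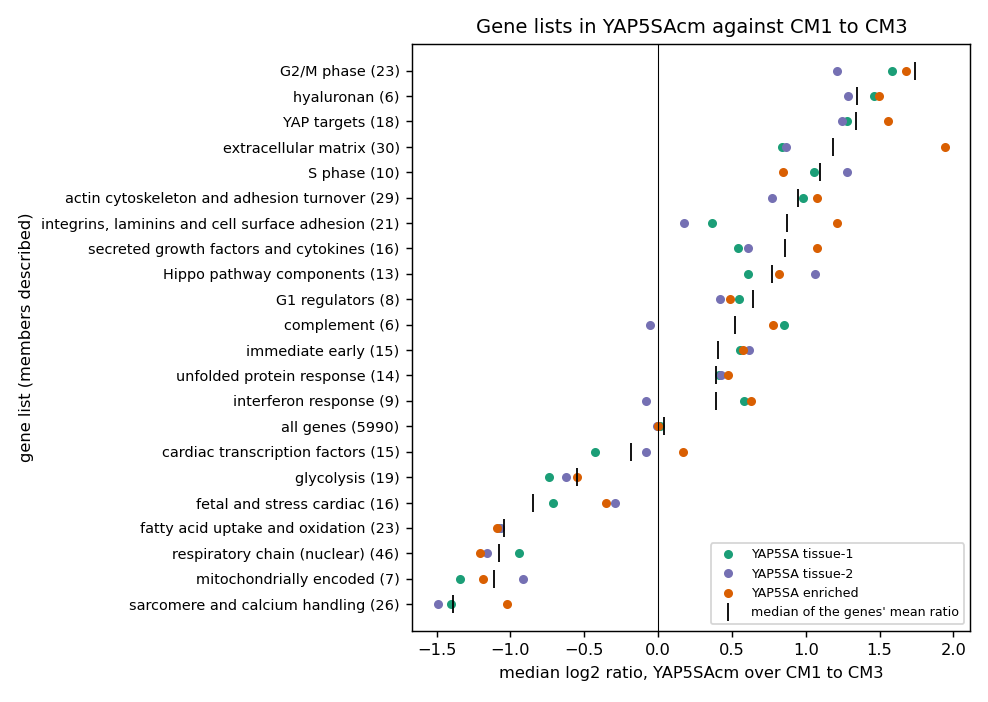
Median log2 ratio of YAP5SAcm to CM1 to CM3 for 21 gene lists and for all 5990 genes, per YAP5SA library (points) and for the genes' mean ratio (bar); the number of genes described is in brackets. Cell cycle, hyaluronan, YAP target and matrix genes lie above 0 in each library, and sarcomere, mitochondrial and fatty acid genes below 0; with library totals alone every bar moves right and cardiac transcription factors change sign, from -0.18 to 0.15.

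Fetal and stress genes of the heart were called in both directions, with 2 of 16 higher and 3 lower (median -0.85). The list's median was below 0 in each library, at -0.71, -0.29 and -0.35 in tissue-1, tissue-2 and enriched. Acta2 and Actn1 were the ones high, Myh7, Myl7 and Xirp2 the ones low. Nppb, the natriuretic peptide of wall stress, had ratios of 0.24, 0.19 and 0.92, and Nppa of -2.02, -2.27 and -0.73. The skeletal actin Acta1 differed between preparations, at 84.0 and 102 CPM in tissue and 837 in enriched YAP5SAcm cells, and at 234, 115 and 4061 in CM1 to CM3. None of 15 cardiac transcription factors was called. Of 14 genes of the unfolded protein response Herpud1 was called lower, and of 15 immediate early genes Fos, Fosl2 and Dusp1 higher.

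Cell cycle transcripts were high, mainly those of G2 and mitosis. Of 23 G2/M genes described, of 51 listed, 13 were called higher and none lower (median 1.74), of 10 S phase genes, of 42 listed, Fen1 and Rrm2, and of 8 G1 regulators Cdkn1c, an inhibitor of cyclin-dependent kinases (103, 107 and 135 CPM against 20.1, 23.0 and 55.0). Top2a, which untangles chromosomes, stood at 77.3, 100 and 120 CPM against 16.7, 23.0 and 15.7 (2.31 ± 0.42). Mki67 stood at 149, 109 and 71.4 CPM against 20.1, 46.0 and 12.7 (2.11 ± 0.81). The D-type cyclin Ccnd1, the one most tied to entry into the cycle, had ratios of 1.28, 0.41 and 1.73.

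A few cells carried much of this. An earlier clustering, also in the deposited cell table, named 78 of the 995 cells Y5SA-3 (15, 19 and 44 in tissue-1, tissue-2 and enriched), of which the authors' phase call put 72 in G2/M and 6 in S. They held 12.1%, 13.7% and 11.5% of the cluster's UMIs but 63.4%, 57.5% and 52.3% of its UMIs of G2/M genes. Without them the G2/M list summed to 1011, 1212 and 1350 CPM after TMM scaling in YAP5SAcm, against 972, 1266 and 1223 in CM1 to CM3. Nearly all cells left out were called G2/M, so that the sum of YAP5SAcm had to fall. CM1 to CM3 kept their own cells called G2/M, in enriched 1 of CM1, 13 of CM2 and 3 of CM3. The size of the remaining gap is therefore not a like comparison. Unscaled, the sums were 1210, 1421 and 1373 against 928, 1192 and 954. By the authors' phase calls 18.4%, 21.7% and 19.96% of the cells were outside G1, against 2.94%, 7.41% and 1.65% in CM1, 10%, 26.9% and 12.99% in CM2 and 5.26%, 3.85% and 9.09% in CM3. After thinning, an S phase UMI was found in 40.6%, 44.5% and 37.0% of YAP5SAcm cells and in 17.6%, 33.3% and 21.4% of CM1 cells (unthinned 60.4%, 66.0% and 68.0%, and 64.7%, 88.9% and 77.5%), with intervals that stood apart in enriched alone. A G2/M UMI was found in 68.9%, 73.6% and 67.8% against 61.8%, 55.6% and 56.6%, with intervals that overlapped in each library, and in 50%, 76.9% and 62.9% of CM2 cells. Endothelial cells of these libraries were higher than both, with 52.4% to 72.8% for S phase.

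The earlier clustering also shows how the cluster borders on its neighbours. Of the 995 cells 796 had been named Y5SA-2, and 213 of the 297 CM2 cells of the YAP5SA libraries (71.7%) had carried that same name, against 59 of 193 CM3 (30.6%) and 14 of 243 CM1 cells (5.76%). CM1 cells had mostly been named Y5SA-1 (218 of 243). Of the 99 Control cells in YAP5SAcm, 2 had been in a Y5SA cluster; 47 of the 50 of tissue-2 had been named CM3, and 10 of the 16 of Control enriched had been in an endothelial cluster.

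Those Control cells differed from the YAP5SA cells of the same cluster, a contrast the choice of cells did not use. The 99 cells held 257068 UMIs and none of Cemip. In the 896 YAP5SA cells Cemip had 2376 of 3996642 UMIs (595 CPM), at least 50.9-fold higher than the 11.7 CPM that a floor of 3 counts over all Control cells allows. edgeR's quasi-likelihood test over 6999 genes, with preparation as a term, called 397 higher (5.67%) and 210 lower (3%) in YAP5SA at a Benjamini-Hochberg adjusted p under 0.05. Mcam had 0 UMIs in enriched Control cells, 4 in tissue-2 and 1 in tissue-3, against 393 in tissue-1 of YAP5SA, 526 in tissue-2 and 638 in enriched (log2 fold change 4.52 ± 0.77 SE). It averaged 15.4 CPM in Control, so that it was tested only because it was high in YAP5SA, and its fold change is a description. The markers were also not chosen apart from genotype, since 896 of the cluster's 995 cells came from YAP5SA. Csf1, Acta2 and Crim1, with 8, 88 and 19 UMIs over all Control cells, were raised by 3.91 ± 0.72, 3.72 ± 0.70 and 2.44 ± 0.63 (adjusted p = 9.66e-06, 1.53e-05 and 0.0039). Since they are the cluster's own markers, their p-values describe these cells and are not independent support. None of these 3 genes overlapped between the genotypes, which held for 28.2% of all genes tested and for 510 of the 607 called. Yap1 had 0, 6 and 3 UMIs in Control and 41, 52 and 73 in YAP5SA (0.34 ± 0.63, adjusted p = 0.828).

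The smallest p among raised genes after Cemip were those of Pak3, the myelin and membrane protein gene Pmp22, the actin nucleator Cobl and Lox, each with at most 6 UMIs in any Control library. Pak3, Cobl and Lox averaged 2.58, 7.74 and 10.3 CPM in Control, so that they were tested only because they were high in YAP5SA, and their rank is a description; Pmp22 was raised by 4.56 ± 0.72 (adjusted p = 1.95e-07). Among lowered genes they were those of Asb2, Fsd2, the potassium channel Kcnk3, the clock output gene Dbp, and Esr1. Asb2, which marks muscle proteins for breakdown, fell by 3.60 ± 0.47 (adjusted p = 9.00e-11) and did not overlap between the genotypes, like most genes called. Esr1 and Dbp overlapped between the genotypes, since Control tissue-2 had 1 UMI of each, and Esr1 sequence is also part of the MerCreMer transgene, so that UMIs of both cannot be told apart. Of the lists, 17 of 35 G2/M genes were raised and none lowered, 12 of 26 sarcomere genes lowered and none raised, and 9 of 15 immediate early genes lowered and none raised; genes scarce in the Control cells entered these counts only where they were high in YAP5SA. Markers of other cell types moved in the same contrast. Endothelial markers summed to 3659, 178 and 2923 CPM (unscaled) in Control enriched cells, tissue-2 and tissue-3 and to between 369 and 1091 in YAP5SA, with 1 of 7 lowered. Fibroblast markers summed to 813, 793 and 5452 CPM against 672 to 1253, with 1 of 11 lowered, and pericyte markers to 1848, 144 and 406 against 461 to 647, with 2 of 6 lowered and 1, Mcam, raised. Smooth muscle markers summed to 813, 11683 and 1587 against 4887 to 6487, with 3 of 6 raised and 1 lowered. The part of these cells was not tested. The Control cells were few, and their median share of mitochondrial UMIs was 34.0%, 13.4% and 24.3% (enriched, tissue-2, tissue-3), against 6.83%, 8.42% and 8.74% in YAP5SA. In the same Control libraries it was 12.2%, 6.78% and 13.7% in CM1, 15.4%, 7.18% and 25.3% in CM2, and 18.7%, 13.1% and 20.4% in CM3. A high share was thus not particular to these cells in tissue-2 and tissue-3. The part of this share in the calls was not tested. The number of calls depended on which libraries entered, and tissue libraries of both genotypes alone still gave calls, as counted further below. Leaving out 1 YAP5SA library also lowered the number of genes tested. Without tissue-1, tissue-2 or enriched, edgeR called 0 genes of 2900, 2918 and 4230 tested, with 360, 314 and 921 at an unadjusted p under 0.05, and DESeq2 called 35, 30 and 47 higher and 30, 25 and 30 lower.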

How the data were processed

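The libraries were processed by the authors with Picard, STAR and Seurat 2.3.4, per the submitters' processing notes; genome build and annotation are not given in the sources used here. The deposited table holds whole-number UMI counts of 22281 features in 21706 cells. The deposited cell table gives library, cluster, phase and the fraction of mitochondrial UMIs, as the authors computed it. The deposited scaled values were left aside. Library totals ran from 3382656 to 13483791 UMIs, which limits precision; 10 barcodes occur in more than 1 library. Doublets were not removed here. The YAP5SA tissue libraries are numbered otherwise in the titles and were assigned to their group only.

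Overlapping genes share 1 hyphenated name in 4 libraries; 829 such names were merged with their members (21229 features), and 1231 features counted under 1 way of naming were not tested. Gene symbols Ccn1, Ccn2 and Cemip2 were matched as Cyr61, Ctgf and Tmem2. Counts were summed per library and cluster (at least 10 cells). Log2 ratios used edgeR 4.0.16 in R 4.3.3 with TMM and a prior count of 2; genotype was tested by the quasi-likelihood F test (filterByExpr, robust), checked on simulated data, with DESeq2 1.42.0 as an alternative. Shares have 95% Clopper-Pearson intervals, and 0 counts allow up to 3.

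The members, 21 pathway and 15 marker lists, and comparisons were chosen with earlier results of these data known. Named were the 5 markers and Yap1; the 12 largest and 12 smallest ratios among called genes with at least 50 CPM and not over 5-fold below another cell type of at least 100 cells; up to 3 members of each pathway list by size of ratio at 50 CPM or more; and 5 genes each way by p between genotypes. Other named genes are members of the called lists or were chosen after their values were seen. Alternatives were other scalings, CPM minima, prior count, weights, cells, names and libraries, DESeq2, no filter and no covariate. Some genes that these rules name are not reported here.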

Additional observations from a re-analysis of the deposited data

Results flagged for a closer look

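Myl4, an atrial and embryonic myosin light chain, was low in YAP5SAcm against CM1 to CM3 in both tissue libraries and not in the enriched one. Its mean log2 ratio was -3.53 in tissue and 0.40 in enriched, and the difference was not tested. It stood at 128 and 323 CPM in YAP5SAcm and 1928 and 2897 CPM in CM1 to CM3 of tissue-1 and tissue-2, and at 388 against 294 CPM in enriched.

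Egfp, a feature outside the comparisons, had UMIs in both YAP5SA tissue libraries and 0 in the other 4, whether or not it was counted there. In YAP5SAcm cells it had 143 UMIs in tissue-1 and 131 in tissue-2, in 50 of 212 cells (23.6%, exact 95% interval 18.0 to 29.9) and 53 of 203 cells (26.1%, 20.2 to 32.7). CM1 had it in 10 of 34 and 12 of 27 cells, CM2 in 10 of 40 and 11 of 26, and CM3 in 5 of 57 and 2 of 26 (8.77% and 7.69%). These cells were not thinned and differ in depth, and levels gave another order. YAP5SAcm stood at 192 and 140 CPM (unscaled) in tissue-1 and tissue-2, CM1 at 151 and 777, CM2 at 859 and 484, and CM3 at 442 and 33.5. The largest macrophage cluster by cells, Mac1, had it in 11 of 676 and 12 of 1189 cells (1.63% and 1.01%). The labels do not name this feature.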

How the results depend on the processing

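The counts of genes moved with the settings. For YAP5SAcm against CM1 to CM3 (326 higher, 234 lower), library totals alone gave 624 and 97, a minimum of 5 CPM 561 higher, a minimum of 100 CPM 95 and 132, equal weight of CM1, CM2 and CM3 91 lower, and cells thinned to 1000 UMIs 140 lower. Leaving out each YAP5SA library, so that a call needs the other 2, gave 422 to 489 higher and 268 to 352 lower. For genotype inside the cluster (397 higher, 210 lower), library totals alone gave 674 and 130, DESeq2 228 higher, no filter on low counts 121 lower, no covariate 247 and 127, tissue libraries alone 67 and 30, and 16 cells from every library 40 and 16; leaving out each library gave 0 to 384 higher and 0 to 226 lower. Without Control tissue-3 the counts were 157 and 86. Keeping only cells that the earlier clustering also placed among cardiomyocytes, chosen after seeing the data, gave 292 and 156. Control enriched, with 4 such cells, did not enter that setting. The difference in the share of cardiomyocytes ran from 50.5 to 62.6 points over the libraries left out; it was 61.2 points in tissue libraries alone (exact permutation p = 0.333, their smallest), 5.20 points with all cells as the denominator, and p = 0.1, again the smallest, with genotype permuted over all 6 libraries. None of these values changed sign. With library totals alone, list medians did for cardiac transcription factors (-0.18 to 0.15), endocardial markers (-0.26 to 0.07) and pericyte markers (-0.06 to 0.26), and with RLE the median of all genes did (0.04 to -0.02). YAP5SAcm and CM1 to CM3 were compared within each library. No paired analysis was possible because, for genotype, the files number the YAP5SA tissue libraries 1 and 2 where the titles number them 2 and 3, so that replicate numbers cannot be matched to columns. Depth limits the Control cells most, at 27054 UMIs in the enriched library. The causes of these shifts were not tested.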

Other observations

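Markers of other cell types were present at low levels in YAP5SAcm sums, in TMM-scaled CPM summed over each list and given for tissue-1, tissue-2 and enriched. Endothelial markers summed to 419, 315 and 1074 in YAP5SAcm and 167, 247 and 678 in CM1 to CM3, and none of the 3 described was called. Pericyte markers summed to 541, 543 and 453 against 157, 263 and 174; Mcam, which is on that list, was the 1 of 4 called higher, and Abcc9 the 1 called lower. Endocardial markers summed to 113, 101 and 125 against 227, 151 and 203, with Gmpr called lower. Monocyte markers summed to 77.3, 142 and 116 against 30.1, 138 and 83.4, and epicardial markers to 78.4, 73.7 and 71.4 against 53.5, 23.0 and 27.8, with none called. Erythroid markers summed to 114, 2.73 and 80.4 against 10.02, 3.29 and 119. Neutrophil, T or NK cell, B cell, Schwann cell and adipocyte markers each summed to at most 10.6 CPM in YAP5SAcm, and S100a9, Csf3r, Mmp8, Cd3e, Nkg7 and Plin1 had no UMI there. The part of these cell types in the results was not tested.

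YAP5SAcm cells had a smaller mitochondrial share than CM1 and CM3 cells. Mitochondrial UMIs made up a median of 6.83%, 8.42% and 8.74% in YAP5SAcm, 8.80%, 11.2% and 10.7% in CM1, 7.70%, 3.92% and 10.3% in CM2, the lowest of all in tissue-2, and 19.6%, 16.3% and 12.8% in CM3. The median number of genes per cell was 1203.5, 1447 and 1529 in YAP5SAcm and 773, 1000 and 1058 in CM3, at 2107.5, 2690 and 3251 UMIs against 1633, 2461.5 and 2180.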
